A study of Homo sapiens with 6 samples.

Results

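The response of BicR cells to dihydrotestosterone (DHT) was measured by comparing 1 DHT library with 2 libraries grown without added androgen, used jointly. These 3 libraries, of 6 in the series, were the BicR libraries given 10 nM DHT, 1 µM bicalutamide or ethanol vehicle for 24 h. BicR is a line that the labels describe only as prostate cancer, without its derivation. Bicalutamide is an antiandrogen, a nonsteroidal drug that competes with androgens for binding in the cell. Before treatment all cells, the DHT cells included, spent 3 days in phenol red-free medium with 2.5% charcoal-treated serum, which holds little steroid hormone. The other 3 libraries were LNCaP cells, an established androgen-responsive prostate cancer line, given the same treatments. Each combination of line and treatment was a single library, and nothing in the labels says how many cultures it came from. Gene-level counts came from total RNA sequenced on the SOLiD 3 Plus platform.

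Androgens act through a ligand-activated transcription factor of the steroid receptor family. Bound by DHT, it leaves its chaperones, enters the nucleus and binds androgen response elements, paired copies of a short half-site, together with pioneer factors such as FOXA1. In prostate luminal cells its known targets include secreted proteases, ion channels, lipid-synthesizing enzymes and its own regulators, and a second set of genes is repressed.

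Total counts were 42162723 for DHT, 47185123 for bicalutamide and 49460929 for ethanol. Levels are CPM, counts scaled by TMM to a common library size, and each difference is between log2(CPM + 1) values, so that changes of scarcely read genes come out too small. Of 21512 listed genes, 13885 averaged 20 counts or more across all 6 libraries and were compared. A gene was called when DHT lay at least 2-fold above, or 2-fold below, each of the androgen-free libraries. In any called gene, DHT is therefore the highest or lowest of the 3 levels by definition, which is not further evidence. Defining markers of luminal prostate cells were present, the kallikreins and the keratins KRT8 and KRT18 among them, with the values given below. Of the defining markers of other cell types, some were near 0 and some were read. PTPRC (leukocytes) and CDH5 (endothelium) had 0 counts in all 3 libraries, which allows up to 0.0715, 0.0610 and 0.0576 CPM in the DHT, bicalutamide and ethanol libraries at a floor of 3 counts, and the basal keratin KRT5 had 1 count with DHT, against 3 with bicalutamide and 2 with ethanol. The mesenchymal marker COL1A1, a collagen chain, had 1071 counts with DHT, against 1305 with bicalutamide and 1290 with ethanol, and VIM and the neuroendocrine marker SYP, whose values are given below, were also read in all 3.

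The androgen-free libraries were close to each other and DHT stood apart from them. The median size of the difference was 0.16 for DHT against the androgen-free mean, and 0.08 for bicalutamide against ethanol. At the 99th percentile these sizes were 1.53 and 0.41. On the log2(CPM + 1) scale no gene differed 2-fold between bicalutamide and ethanol (0 of 13885, or 0.0%). This scale shrinks the differences of scarcely read genes, and with a pseudocount of 0.1 CPM 30 genes differed 2-fold. The greatest difference on the log2(CPM + 1) scale was 0.93, in SNORD2, a small nucleolar RNA. SNORD2 had 21 counts with DHT, against 73 with bicalutamide and 16 with ethanol. In bulk RNA a change in the share of cells that express a gene and a change per cell cannot be told apart. With DHT, 182 genes, 1.31% of those tested, were at least 2-fold higher than each androgen-free library, and 106, or 0.763%, were at least 2-fold lower. Of these, 55 genes were over 4-fold higher and 12 over 4-fold lower. At the edge of the call, the smaller of the 2 differences was 1.004 for ACAD8 inside it and 0.994 for PTPN21 outside it, and on the lower side -1.001 for TRIM29 and -0.999 for TNFRSF21.

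**Figure D1:**
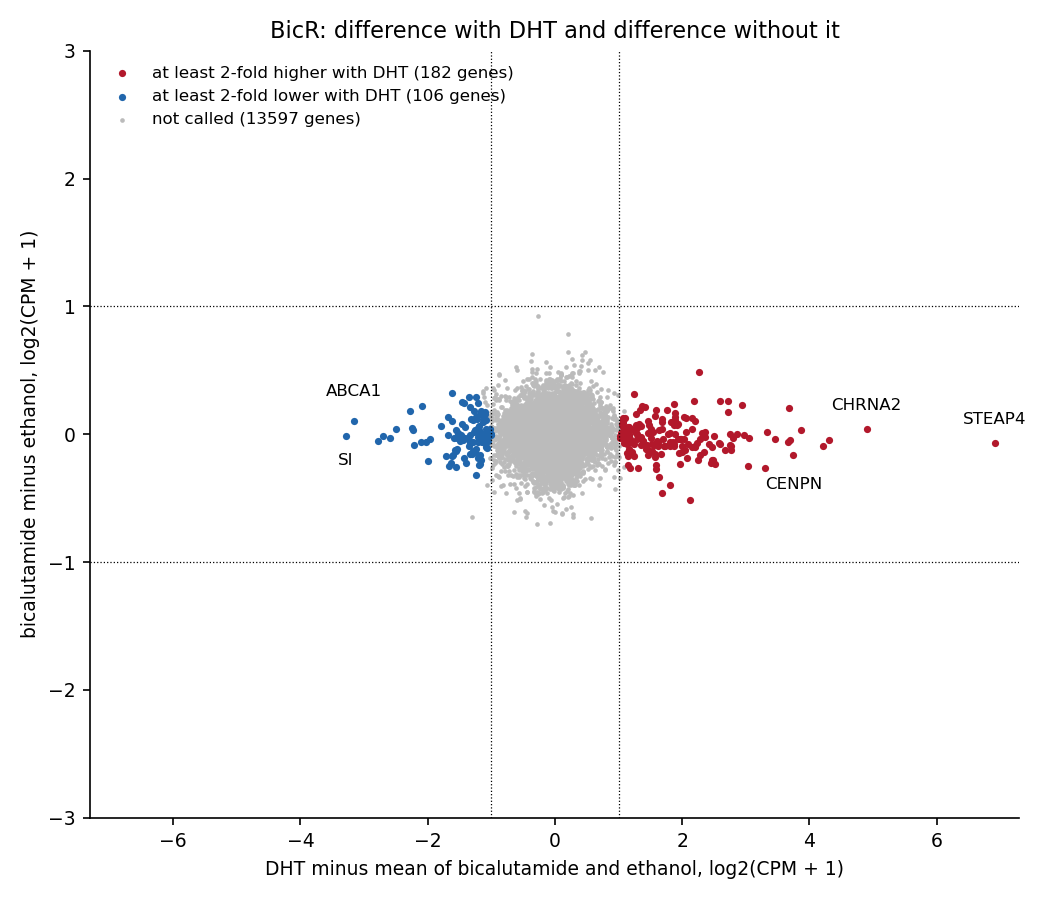
Each point is a gene, with the DHT difference on the x axis and the bicalutamide minus ethanol difference on the y axis, both on the log2(CPM + 1) scale, and dotted lines at 2-fold. The 182 genes called higher and 106 called lower spread along the x axis, while no gene crosses a dotted line on the y axis; grey points beyond the vertical lines passed 2-fold against the mean but not against each library.

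A quasi-likelihood test in edgeR over the 3 libraries called 2001 genes higher and 1936 lower, 14.4% and 13.9% of those tested, at a Benjamini-Hochberg adjusted p under 0.05. In this fit the error is the difference between the bicalutamide and ethanol libraries, so it holds no variation between cultures given DHT. Only 1 residual degree of freedom was left. The prior degrees of freedom were infinite, so the spread was pooled over genes, and no gene was judged against its own spread. "Rose" and "fell" below refer to this test. When the spread was instead shared with the LNCaP libraries in a fit of all 6, with line, androgen and their interaction, 112 genes rose and 26 fell (0.807% and 0.187%), all of them among the genes called 2-fold in that direction and among those called over the 3 libraries. All 3 BicR libraries enter both fits, so these are not independent tests. Genes of that smaller set are said to have passed in both fits. All 182 genes called 2-fold higher and all 106 called 2-fold lower passed the 3-library test.

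The called genes held a small share of all counts, and the direction in which that share moved was fixed by the call. Those called higher held 4.78% of all counts with DHT, against 1.34% with bicalutamide and 1.40% with ethanol. Those called lower held 0.348% with DHT, against 1.00% and 1.03% with bicalutamide and ethanol. ABHD2, a lipase gene, was among the genes that gained most in CPM and had 137665 counts with DHT, against 50750 with bicalutamide and 56965 with ethanol. Calls were scarce among the least read genes, whose differences the scale shrinks. Under 1 CPM, 0.0967% of genes were called higher and 0.193% lower. Among genes of 1 to 5 CPM, 2.30% were called higher and 1.59% lower. The shares were 1.06% and 0.896% at 5 to 20 CPM, and 0.951% and 0.494% at 20 to 100 CPM. Over 100 CPM they were 2.22% and 0.824%.

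STEAP4, a metalloreductase that reduces iron and copper, had the highest difference of all genes. It had 5668 counts with DHT, against 5 with bicalutamide and 8 with ethanol. The level was high only in the DHT library, at a ratio of 1052 (95% counting interval 615 to 1978) to the pooled androgen-free libraries. CHRNA2, a nicotinic acetylcholine receptor subunit, had 4381 counts with DHT, against 127 with bicalutamide and 129 with ethanol, a ratio of 41.3 (95% counting interval 36.4 to 47.0). FKBP5, a co-chaperone of steroid receptors, had 29849 counts with DHT, against 2665 with bicalutamide and 2942 with ethanol. Its ratio was 12.8 (95% counting interval 12.5 to 13.2). For each of these genes the bicalutamide and ethanol counts lay close together, and each passed in both fits.

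Other genes among the 15 highest had varied roles. CENPN, a centromere protein, stood at 12576 counts with DHT, against 991 with bicalutamide and 1183 with ethanol. NCAPD3, a subunit of condensin II, which compacts mitotic chromosomes, stood at 37923 counts with DHT, against 3319 with bicalutamide and 3630 with ethanol. PGC, the precursor of a gastric-type aspartic protease, had 727 counts with DHT, against 26 with bicalutamide and 17 with ethanol. MBOAT2, a lysophospholipid acyltransferase, had 9394 counts with DHT, against 1350 with bicalutamide and 1438 with ethanol. ST6GALNAC1, a sialyltransferase that makes the sialyl-Tn antigen, had 2569 counts with DHT, against 226 with bicalutamide and 247 with ethanol. All 5 genes passed in both fits. SLC2A3, a glucose transporter gene, was almost unread without androgen, with 309 counts with DHT, against 0 with bicalutamide and 1 with ethanol, a ratio of 746 (95% counting interval 133 to 29551). TRIM49L, from a family of near-identical copies whose reads may be shared, had 2470 counts with DHT, against 97 with bicalutamide and 108 with ethanol.

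**Figure D2:**
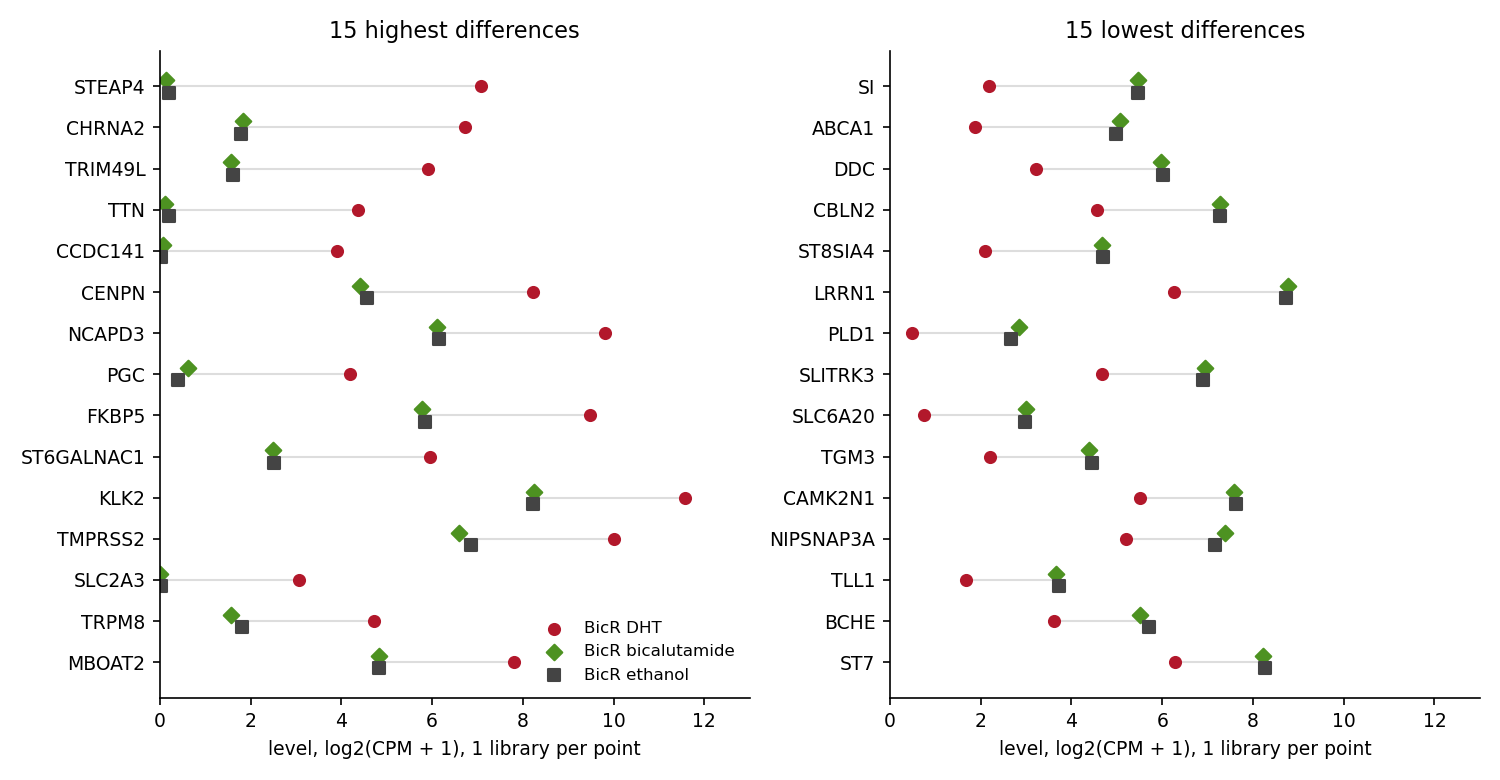
Levels of the 15 genes with the highest and the 15 with the lowest DHT difference among those called, on the log2(CPM + 1) scale, with 1 point per library. In every row the bicalutamide and ethanol points lie at most 0.26 log2 units apart, as in TMPRSS2, while the DHT point stands at least 2.98 above their mean on the left and 1.97 below it on the right.

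Secreted and surface proteins of luminal prostate cells were among the genes with most counts. KLK2, a trypsin-like kallikrein, had 3046 CPM with DHT, against 302 with bicalutamide and 298 with ethanol. KLK3, prostate-specific antigen, which liquefies semen, had 2600.5 CPM with DHT, against 629.9 with bicalutamide and 672 with ethanol. Both were highest with DHT, as the call requires. Their edgeR log2 fold changes were 3.343 and 1.998, and with a single DHT library their variation between cultures was not measured. TMPRSS2, a membrane serine protease whose promoter is often fused to ERG in prostate cancer, had 1032 CPM with DHT, against 95.1 with bicalutamide and 114 with ethanol. SLC45A3, the sugar transporter also called prostein, had 1593 CPM with DHT, against 225 with bicalutamide and 229.6 with ethanol. Of the 9 kallikrein genes tested, 5 rose, 0 fell and 4 did not pass, and the 4 that passed in both fits (KLK2, KLK3, KLK4 and KLK15) were the 4 called 2-fold. The remaining members had at most 40 counts in any BicR library, KLK1 among them with 40 counts with DHT, against 19 with bicalutamide and 9 with ethanol.

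The luminal marker list was not uniform. Of its 25 tested members 17 rose and 3 fell, with a median difference of 0.73 beside 0.00 over all tested genes. The members that fell were ACPP, FOLH1 and OR51E1. ACPP, prostatic acid phosphatase, had 36.2 CPM with DHT, against 89.4 with bicalutamide and 105 with ethanol. FOLH1, prostate-specific membrane antigen, had 417 CPM with DHT, against 821 with bicalutamide and 758 with ethanol. OR51E1, an odorant receptor, had 0.763 CPM with DHT, against 3.58 with bicalutamide and 3.23 with ethanol. ACPP and OR51E1 were called 2-fold lower and FOLH1 stood at -0.92, short of the call; none of the 3 passed the fit of 6 libraries. The luminal keratin KRT8 had 1129 CPM with DHT, against 770.2 with bicalutamide and 603 with ethanol. Its partner KRT18 had 578 CPM with DHT, against 339.6 with bicalutamide and 345 with ethanol.

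Promoter sequence is shown for the 3 genes that led their direction or are textbook targets and that hold an androgen response half-site, AGAACA or its reverse complement TGTTCT, in the bases before the gene's start. Sequences are from RefSeq on GRCh38.p14, not the build of the count table, and give the 250 bases before the annotated start, 5′ to 3′ on the gene's strand, with the half-site in capitals. TTN lies at chr2:178807424-178807673 on the minus strand, KLK3 at chr19:50854665-50854914 on the plus strand and SI at chr3:165078497-165078746 on the minus strand.
KLK3: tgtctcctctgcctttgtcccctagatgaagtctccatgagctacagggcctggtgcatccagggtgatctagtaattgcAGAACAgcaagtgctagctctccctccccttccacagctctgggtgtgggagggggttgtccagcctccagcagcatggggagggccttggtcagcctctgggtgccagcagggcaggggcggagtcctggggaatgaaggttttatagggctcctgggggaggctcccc
TTN: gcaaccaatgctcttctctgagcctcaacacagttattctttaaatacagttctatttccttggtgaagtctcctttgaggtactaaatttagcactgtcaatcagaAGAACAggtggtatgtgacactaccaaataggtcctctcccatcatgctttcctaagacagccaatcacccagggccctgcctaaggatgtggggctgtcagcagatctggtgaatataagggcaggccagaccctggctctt
SI: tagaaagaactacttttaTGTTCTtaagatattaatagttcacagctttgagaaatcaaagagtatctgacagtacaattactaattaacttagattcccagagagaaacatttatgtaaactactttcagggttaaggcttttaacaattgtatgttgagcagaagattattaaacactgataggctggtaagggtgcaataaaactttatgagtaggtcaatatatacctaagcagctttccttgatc
In KLK3 the half-site begins 170 bases before the start, at the place of the proximal androgen response element known from work on this promoter. In TTN it begins 143 bases and in SI 232 bases before the start. The half-site was also present before genes that were not called. In windows from 250 bases before to 50 bases after the start, AGAACA on either strand was found in 8 of 81 promoters of genes called higher (9.88%), 7 of 56 of genes called lower (12.5%) and 631 of 7562 of all tested genes (8.34%). The full palindrome, AGAACA followed after any 3 bases by TGTTCT, which contains the half-site on each strand, was in 0 of these windows. The windows cover only genes with a promoter in the table used here, and a match is a description of letters, not of binding.

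Some called genes lay side by side on their chromosomes. The order of genes was taken from RefSeq, for 13404 tested genes. Of 179 genes called higher with a place in that order, 38 had a gene called higher as the next tested gene on 1 side or the other; of all placed genes, 2.61% had such a neighbour. Of 106 called lower, 17 lay next to another called lower, where 1.54% of all placed genes lay next to one. No test was made of these shares. The kallikreins gave the longest run of higher genes, from KLK15 through KLK3, KLK2 and KLKP1 to KLK4. KLKP1, a pseudogene, had 290 counts with DHT, against 65 with bicalutamide and 61 with ethanol. TTN, the titin gene, and CCDC141, which neighbours it, were nearly unread without androgen. TTN had 828 counts with DHT, against 4 with bicalutamide and 8 with ethanol. CCDC141 had 588 counts with DHT, against 2 with bicalutamide and 1 with ethanol. On the authors' RPKM scale, which also divides by length, TTN stood at only 0.115 with DHT and CCDC141 at 2.41. FAM105A, FAM105B and ANKH, a pyrophosphate exporter gene, formed a run of 3, with ANKH at 15744 counts with DHT, against 4737 with bicalutamide and 5154 with ethanol. A pair of nuclear receptor genes on chromosome 3, THRB and RARB, were called together. THRB, a thyroid hormone receptor, had 5944 counts with DHT, against 2931 with bicalutamide and 2946 with ethanol. RARB, a retinoic acid receptor, had 290 counts with DHT, against 117 with bicalutamide and 139 with ethanol.

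Genes called lower formed runs too. On chromosome 9, NIPSNAP3A, NIPSNAP3B, ABCA1 and SLC44A1 followed each other. ABCA1, the transporter that loads cholesterol onto lipoproteins, had 111 counts with DHT, against 1605 with bicalutamide and 1582 with ethanol. SLC44A1, a choline transporter, had 2762 counts with DHT, against 9216 with bicalutamide and 9233 with ethanol. NIPSNAP3A had 1497 counts with DHT, against 8202 with bicalutamide and 7432 with ethanol. NIPSNAP3A and NIPSNAP3B are related copies whose reads may be shared. On chromosome 3, SI, SLITRK3 and BCHE followed each other, and on chromosome 7, DDC and GRB10. All of these had a DHT count below each androgen-free count, as the call requires. In 2 neighbouring pairs the calls were opposite: PLA2G5 was higher beside PLA2G2A, another secreted phospholipase A2, which was lower, and SLC38A4 was higher beside AMIGO2, which was lower. PLA2G5 had 216 counts with DHT, against 22 with bicalutamide and 17 with ethanol. PLA2G2A had 914 counts with DHT, against 3184 with bicalutamide and 3351 with ethanol.

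SI, sucrase-isomaltase, an enzyme of the intestinal brush border, had the lowest difference of all. It had 148 counts with DHT, against 2109 with bicalutamide and 2260 with ethanol, a ratio of 0.0818 (95% counting interval 0.0689 to 0.0963). ABCA1 stood at a ratio of 0.0841 (95% counting interval 0.0689 to 0.102). DDC, dopa decarboxylase, which makes dopamine and serotonin, had 349 counts with DHT, against 3036 with bicalutamide and 3346 with ethanol, a ratio of 0.132 (95% counting interval 0.118 to 0.147). All 3 genes passed in both fits. CBLN2, a synaptic organizer, had 953 counts with DHT, against 7520 with bicalutamide and 8028 with ethanol. ST8SIA4, a polysialyltransferase, had 137 counts with DHT, against 1203 with bicalutamide and 1304 with ethanol. PLD1, a phospholipase, had 17 counts with DHT, against 306 with bicalutamide and 279 with ethanol. CAMK2N1, an inhibitor of the kinase CaMKII, had 1856 counts with DHT, against 9320 with bicalutamide and 10319 with ethanol. These 4 genes also passed in both fits. LRRN1, a neuronal leucine-rich repeat protein, had 75.4 CPM with DHT, against 437 with bicalutamide and 424 with ethanol. BCHE, butyrylcholinesterase, had 11.2 CPM with DHT, against 44.6 with bicalutamide and 51.6 with ethanol. Neither passed with 6 libraries. Among genes called lower, the one that lost most in CPM was GRB10, an adaptor that damps insulin receptor signalling, with 509.9 CPM with DHT, against 1518 with bicalutamide and 1552 with ethanol. CDHR1, a photoreceptor cadherin, was read in the androgen-free libraries only, with 0 counts with DHT, against 68 with bicalutamide and 59 with ethanol, which makes it at least 17.5-fold lower with DHT at a floor of 3 counts.

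Each list below is to be read beside the shares over all tested genes, 14.4% that rose and 13.9% that fell. Where a list lies close to these shares, its counts say nothing particular about the list. Genes widely described as androgen-induced rose almost without exception. Of 71 tested, 70 rose and 1 fell, 60 were called 2-fold higher, 51 also rose in the fit of 6 libraries, and the median difference was 1.88. The list was drawn up with earlier results of these libraries known and is not independent evidence of its direction. ACPP was the member that fell. Members that rose by less than 2-fold included STEAP2, STEAP1 and TPD52. STEAP2, a relative of STEAP4, had 1141 CPM with DHT, against 690.5 with bicalutamide and 742 with ethanol. STEAP1, a surface antigen of prostate cancer, had 112 CPM with DHT, against 69.3 with bicalutamide and 64.5 with ethanol. TPD52, a vesicle trafficking gene, had 213 CPM with DHT, against 111 with bicalutamide and 119 with ethanol. Of 8 alpha-tubulins tested 2 rose, 2 fell and 4 did not pass. TUBA3D and TUBA3E, near-identical copies whose reads may be shared, both rose and passed in both fits. TUBA3D had 199 counts with DHT, against 6 with bicalutamide and 15 with ethanol. TUBA3E had 191 counts with DHT, against 6 with bicalutamide and 6 with ethanol. TUBA4A and TUBA4B fell, by 0.61 and 0.91 on the log2 scale. TUBA1A, TUBA1B and TUBA1C did not pass, with differences of 0.13, 0.11 and -0.06.

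Among 35 tested genes described as androgen-repressed, 23 fell and 6 rose, 16 were called 2-fold lower and 3 higher, and 8 fell in the fit of 6 libraries (median -0.87); this list too was drawn up with earlier results known. ST7, a tumour suppressor candidate, had 76.8 CPM with DHT, against 299.7 with bicalutamide and 308 with ethanol. CXCR7, a scavenging receptor for CXCL12, had 164 CPM with DHT, against 463 with bicalutamide and 506 with ethanol. OPRK1, the kappa opioid receptor, had 4.55 CPM with DHT, against 16.7 with bicalutamide and 15.5 with ethanol. IGFBP3, which binds insulin-like growth factors in serum, had 2181 counts with DHT, against 5862 with bicalutamide and 6725 with ethanol. Each was lower with DHT than in both other libraries and passed in both fits. MET, the receptor of hepatocyte growth factor, had 2.69 CPM with DHT, against 9.34 with bicalutamide and 10.2 with ethanol. It fell over the 3 libraries only. TET2, which oxidizes 5-methylcytosine, did not pass, with 1861 counts with DHT, against 2754 with bicalutamide and 2368 with ethanol.

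Of the 6 members that rose against the name of the list, 3 were UGT2B genes (UGT2B28, UGT2B11 and UGT2B10). Some enzymes of this family, but not all, conjugate androgens with glucuronic acid. UGT2B28 had 216 counts with DHT, against 20 with bicalutamide and 25 with ethanol. UGT2B11 had 830 counts with DHT, against 227 with bicalutamide and 224 with ethanol. UGT2B15, by contrast, had 716 counts with DHT, against 2175 with bicalutamide and 2313 with ethanol. UGT2B17 had 10 counts with DHT, against 37 with bicalutamide and 45 with ethanol. The DHT library was high for UGT2B28 and UGT2B11 and low for UGT2B15 and UGT2B17. These genes are close copies, and reads may have been shared among them. Over all 28 tested genes of androgen synthesis and inactivation, 5 rose and 7 fell, with a median of -0.02. AKR1C3, which makes testosterone from androstenedione, had 219 counts with DHT, against 571 with bicalutamide and 657 with ethanol, and its close copies AKR1C1 and AKR1C2 stood at -0.63 and -0.72.

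Genes of androgen-dependent transcription itself passed at shares close to those of all tested genes. Of 31 tested genes in a list of pioneer factors, coregulators and related factors, 4 rose and 6 fell (median -0.07). FOXA1, which opens chromatin for steroid receptors, had 914 CPM with DHT, against 776 with bicalutamide and 767 with ethanol. HOXB13, another lineage factor, had 413 CPM with DHT, against 462 with bicalutamide and 469 with ethanol. FOXA1 rose and HOXB13 did not pass. GATA2, a further pioneer factor, fell, with 319.5 CPM with DHT, against 476 with bicalutamide and 499 with ethanol. The chaperones HSP90AA1 and HSPA8 fell, with differences of -0.29 and -0.28. In a list of glucocorticoid receptor targets, 12 of 21 tested genes rose, 0 fell and 9 did not pass (median 0.37). In both fits, 4 of the 12 passed. SGK1, a kinase that keeps sodium channels at the membrane, had 605 counts with DHT, against 89 with bicalutamide and 70 with ethanol. ZBTB16, a transcriptional repressor, had 5407 counts with DHT, against 1027 with bicalutamide and 1281 with ethanol. KLF15, a metabolic transcription factor, had 1654 counts with DHT, against 915 with bicalutamide and 930 with ethanol. Metallothionein genes, which glucocorticoid also induces in other cells, gave no call in either direction among 6 tested, and MT2A had 2428 counts with DHT, against 2567 with bicalutamide and 2524 with ethanol.

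Genes of cholesterol synthesis rose at most steps of the pathway, nearly all by less than 2-fold. Of 26 tested genes 21 rose and 2 fell, with a median of 0.47, but 1 was called 2-fold and 1 passed with 6 libraries. IDI1, an isomerase of isoprenoid units, had 54.1 CPM with DHT, against 27.6 with bicalutamide and 31.3 with ethanol. FDFT1, squalene synthase, had 453 CPM with DHT, against 278 with bicalutamide and 295 with ethanol. The DHT value was the highest of the 3 libraries in both. SQLE, squalene epoxidase, had 95.2 CPM with DHT, against 65.1 with bicalutamide and 69.3 with ethanol. DHCR7, a late reductase of the pathway, had 218 CPM with DHT, against 154 with bicalutamide and 168 with ethanol. SREBF2, the transcription factor that controls the pathway, had 549 CPM with DHT, against 378 with bicalutamide and 412 with ethanol. These 3 genes rose. INSIG1, a sterol sensor, had 162 CPM with DHT, against 71.9 with bicalutamide and 97.2 with ethanol. In INSIG1 the bicalutamide level lay below ethanol, by 0.43 on the log2 scale. The members that fell were TM7SF2, a sterol reductase, at -0.62, and INSIG2 at -0.28. Of 16 genes of cholesterol efflux and liver X receptor response, 3 rose and 4 fell. Beside ABCA1, those that fell were ABCG1, MYLIP and LPCAT3, at -0.49, -0.42 and -0.42.

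**Figure D3:**
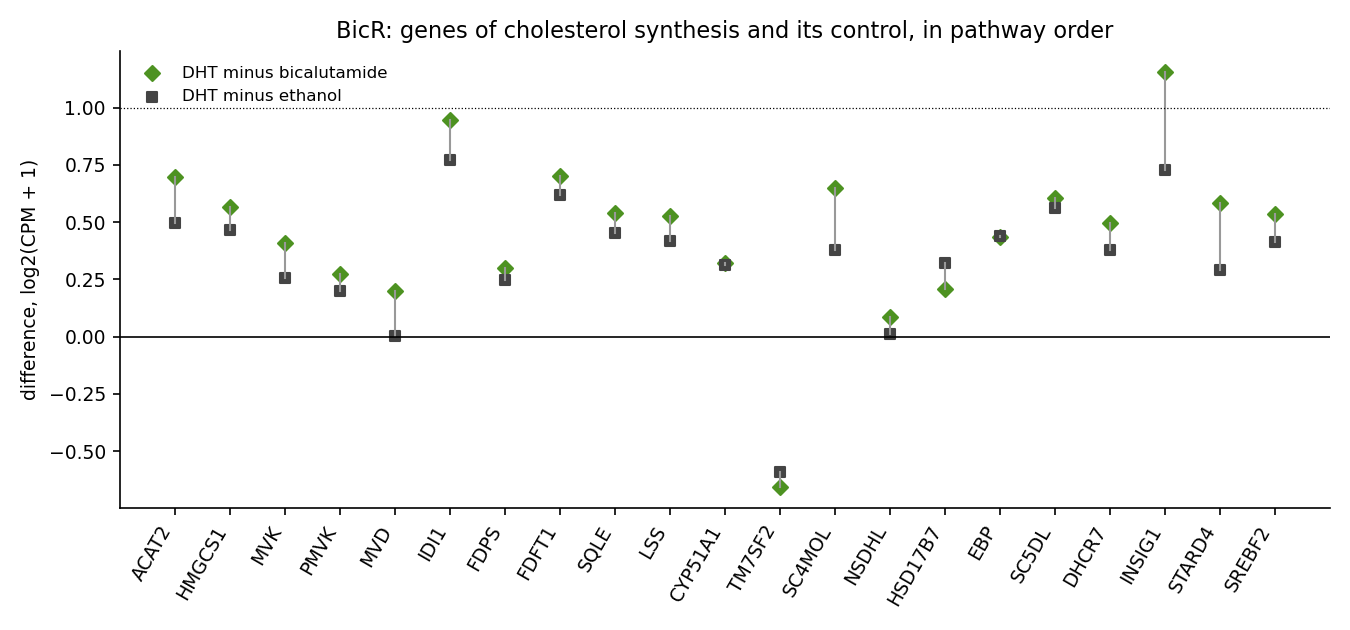
DHT differences on the log2(CPM + 1) scale for genes of cholesterol synthesis in pathway order, followed by regulatory genes, against bicalutamide (diamonds) and against ethanol (squares). Of the genes drawn, TM7SF2 alone lies below 0, and INSIG1 crosses the dotted 2-fold line against bicalutamide only.

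Fatty acid synthesis was mixed. Of 31 tested genes 12 rose and 7 fell (median 0.07). ACSL3, which activates long-chain fatty acids, had 1036 CPM with DHT, against 179 with bicalutamide and 192 with ethanol. ELOVL7, an elongase, had 75.9 CPM with DHT, against 14.9 with bicalutamide and 15.7 with ethanol. ELOVL5, another elongase, had 651 CPM with DHT, against 243 with bicalutamide and 252 with ethanol. These 3 passed in both fits. ACACA, the rate-limiting carboxylase, had 1504 CPM with DHT, against 689 with bicalutamide and 720.5 with ethanol. FASN, fatty acid synthase, had 2946 CPM with DHT, against 1713 with bicalutamide and 1963 with ethanol. On the other side ACSL5 and ACSL4, of the same enzyme family as ACSL3, fell. ACSL5 had 1.33 CPM with DHT, against 3.66 with bicalutamide and 3.13 with ethanol. ACSL4 had 9.77 CPM with DHT, against 14.8 with bicalutamide and 16.4 with ethanol. ELOVL6 stood at -0.54.

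Polyamines, made in great amounts by the prostate, are built from ornithine. Of 18 tested genes of their metabolism 7 rose, 0 fell and 11 did not pass (median 0.14), and 0 passed with 6 libraries. ODC1, ornithine decarboxylase, had 1158 CPM with DHT, against 500.2 with bicalutamide and 516 with ethanol. AMD1, which supplies the aminopropyl donor, had 797 CPM with DHT, against 467 with bicalutamide and 439.7 with ethanol. SMS, spermine synthase, had 97.5 CPM with DHT, against 36.5 with bicalutamide and 38.8 with ethanol. ARG2, an arginase that makes ornithine, had 179.6 CPM with DHT, against 75.2 with bicalutamide and 73.6 with ethanol. SAT1, which acetylates polyamines for breakdown, had 430.4 CPM with DHT, against 202 with bicalutamide and 162 with ethanol. All 5 were highest with DHT, and 4 of them, all but AMD1, were called 2-fold. GNMT, which disposes of excess methyl groups, had 411 counts with DHT, against 87 with bicalutamide and 79 with ethanol. NNMT, which methylates nicotinamide, had 240 counts with DHT, against 5 with bicalutamide and 8 with ethanol.

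Genes of the secretory pathway rose by small amounts. Of 44 genes of the unfolded protein response and secretion, 33 rose and 0 fell, with a median of 0.38; 1 passed with 6 libraries. That gene was CREB3L4, a membrane-bound transcription factor of secretory cells, with 211 CPM with DHT, against 67.2 with bicalutamide and 62.8 with ethanol. PDIA5, a disulfide isomerase, had 72.2 CPM with DHT, against 29.0 with bicalutamide and 32.1 with ethanol. DNAJB9, a cofactor of the chaperone BiP, had 83.3 CPM with DHT, against 49.1 with bicalutamide and 41.8 with ethanol. HSPA5, which encodes BiP, had 1645 CPM with DHT, against 1274 with bicalutamide and 1245 with ethanol. Of 31 ATF4 targets 25 rose and 0 fell, with a median of 0.38 and none passing with 6 libraries. The amino acid transporter SLC1A4 had 156 CPM with DHT, against 90.4 with bicalutamide and 87.4 with ethanol. Its relative SLC1A5, a glutamine transporter, had 479 CPM with DHT, against 323 with bicalutamide and 264 with ethanol. TRIB3, a pseudokinase, had 583 CPM with DHT, against 381 with bicalutamide and 349.8 with ethanol. All 3 rose. In the list as a whole the median of bicalutamide minus ethanol was 0.09.

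Glycosylation enzymes were split. Of 49 tested 20 rose and 10 fell, 6 were called higher and 1 lower. UAP1, which makes UDP-GlcNAc, had 492 CPM with DHT, against 154 with bicalutamide and 164 with ethanol. GCNT1, which branches O-glycans, had 121 CPM with DHT, against 21.3 with bicalutamide and 22.4 with ethanol. EDEM3, which trims misfolded glycoproteins, had 143 CPM with DHT, against 62.4 with bicalutamide and 64.1 with ethanol. These 3 and ST6GALNAC1 passed in both fits. MAN1A1, a mannosidase of N-glycan trimming, had 5.65 CPM with DHT, against 18.8 with bicalutamide and 18.3 with ethanol. ST3GAL1, a sialyltransferase that caps O-glycans, had 796 CPM with DHT, against 1596 with bicalutamide and 1570.1 with ethanol, at a difference of -0.99. Heat shock genes, by contrast, gave 12 that fell and 0 that rose of 27 (median -0.20), among them HSPB1 and HSPB8, small chaperones. HSPB1 had 6362 counts with DHT, against 11160 with bicalutamide and 12993 with ethanol. HSPB8 had 306 counts with DHT, against 941 with bicalutamide and 987 with ethanol.

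Growth factor signalling genes passed in both directions. In the insulin-like growth factor list 9 of 33 rose and 7 fell. IGF1R, the receptor, had 6659 counts with DHT, against 1260 with bicalutamide and 1544 with ethanol. The ligand IGF1 had 379 counts with DHT, against 76 with bicalutamide and 84 with ethanol. INPP4B, a phosphatase that removes a phosphate from PI(3,4)P2, had 625 counts with DHT, against 143 with bicalutamide and 93 with ethanol. In all 3 the DHT count was the high one, and IGF1R and INPP4B passed in both fits. The regulatory subunits PIK3R1 and PIK3R3, of the kinase that makes PIP3, fell. PIK3R1 had 130.3 CPM with DHT, against 250.2 with bicalutamide and 232 with ethanol. PIK3R3 had 142 CPM with DHT, against 258 with bicalutamide and 248 with ethanol. In the EGF and ERBB list 5 of 37 rose and 12 fell (median -0.22). ERRFI1, a feedback inhibitor of EGF receptors, rose, with 299 CPM with DHT, against 59.9 with bicalutamide and 61.5 with ethanol. LRIG1, a negative regulator of the same receptors, rose, with 247 CPM with DHT, against 79.8 with bicalutamide and 78.1 with ethanol. EGR1, an immediate early transcription factor, fell, with 5.51 CPM with DHT, against 20.9 with bicalutamide and 18.9 with ethanol. FOS, another, fell, with 0.620 CPM with DHT, against 1.89 with bicalutamide and 2.38 with ethanol. NR4A1, an immediate early nuclear receptor, rose instead, with 1493 counts with DHT, against 890 with bicalutamide and 1018 with ethanol. Of 22 tested dual-specificity phosphatases, which include phosphatases of MAP kinases, 2 rose, 1 fell and 19 did not pass. DUSP4, which rose, had 88.0 CPM with DHT, against 32.5 with bicalutamide and 33.7 with ethanol. DUSP5, which fell, had 7.58 CPM with DHT, against 17.2 with bicalutamide and 21.6 with ethanol.

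WNT pathway genes fell more often than they rose, 17 against 3 of 39 tested (median -0.21). ROR2, a receptor for WNT5A, had 5.63 CPM with DHT, against 18.2 with bicalutamide and 20.6 with ethanol. LEF1, a transcription factor of the pathway, had 18.4 CPM with DHT, against 42.7 with bicalutamide and 44.6 with ethanol. The negative regulators RNF43, NKD1 and APCDD1, known as targets of the pathway in other tissues, fell by 0.65, 0.65 and 0.79 on the log2 scale. FZD5, a receptor, rose, with 86.4 CPM with DHT, against 39.0 with bicalutamide and 38.4 with ethanol; FZD5, ROR2 and LEF1 passed in both fits. In the TGF-beta and BMP list 20 of 48 fell and 10 rose. PMEPA1, a membrane protein that holds back SMAD signalling, had 14389 counts with DHT, against 2359 with bicalutamide and 2661 with ethanol. BMPR1B, a BMP receptor, had 115 counts with DHT, against 15 with bicalutamide and 22 with ethanol. INHBB, an activin subunit, fell by 1.00, and SMAD7 by 0.69. Of 25 NOTCH genes 5 rose and 2 fell, the ligand JAG1 and the target HES6 among those that rose. JAG1 had 112 CPM with DHT, against 32.6 with bicalutamide and 36.5 with ethanol. HES6 had 72.8 CPM with DHT, against 34.1 with bicalutamide and 38.4 with ethanol.

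Genes of immune recognition fell more often than they rose. Of 45 interferon-stimulated genes 26 fell and 1 rose, with a median of -0.33; 0 were called 2-fold and 0 passed with 6 libraries. IRF1, an interferon-induced transcription factor, had 16.1 CPM with DHT, against 30.5 with bicalutamide and 32.6 with ethanol. IFITM1, which blocks viral entry, had 16.1 CPM with DHT, against 28.6 with bicalutamide and 30.8 with ethanol. OAS3, a sensor of double-stranded RNA, had 63.6 CPM with DHT, against 111 with bicalutamide and 106 with ethanol. In all 3 the DHT level was below both androgen-free levels. Of 25 antigen presentation genes 12 fell and 3 rose. HLA-DRA and HLA-DPA1, class II chains, fell. HLA-DRA had 5.24 CPM with DHT, against 10.3 with bicalutamide and 9.54 with ethanol. HLA-DPA1 had 4.58 CPM with DHT, against 8.87 with bicalutamide and 9.79 with ethanol. B2M, the light chain of class I molecules, rose, with 358 CPM with DHT, against 227 with bicalutamide and 204 with ethanol.

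Cell cycle genes showed small differences. Of 44 mitosis genes 8 rose and 0 fell, and CENPN was the one called 2-fold. In this list the androgen-free libraries also differed, with a median of -0.18 for bicalutamide minus ethanol, and the median DHT difference was 0.25 against bicalutamide and 0.06 against ethanol. MKI67, the proliferation marker, had 4355 counts with DHT, against 4183 with bicalutamide and 5051 with ethanol. It did not pass. Of 46 replication genes 10 fell and 1 rose, MCM2, a helicase subunit, among those that fell. MCM2 had 50.3 CPM with DHT, against 64.8 with bicalutamide and 75.8 with ethanol. The median of the list was -0.14 for bicalutamide minus ethanol. Of 36 ribosome biogenesis genes 1 rose and 0 fell (median -0.01), and MYC, a driver of that programme, stood at -0.02 and did not pass. The reference genes TBP, ACTB and HPRT1 did not pass, with differences of -0.01, -0.17 and -0.22, while GAPDH fell by 0.37.

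**Figure D4:**
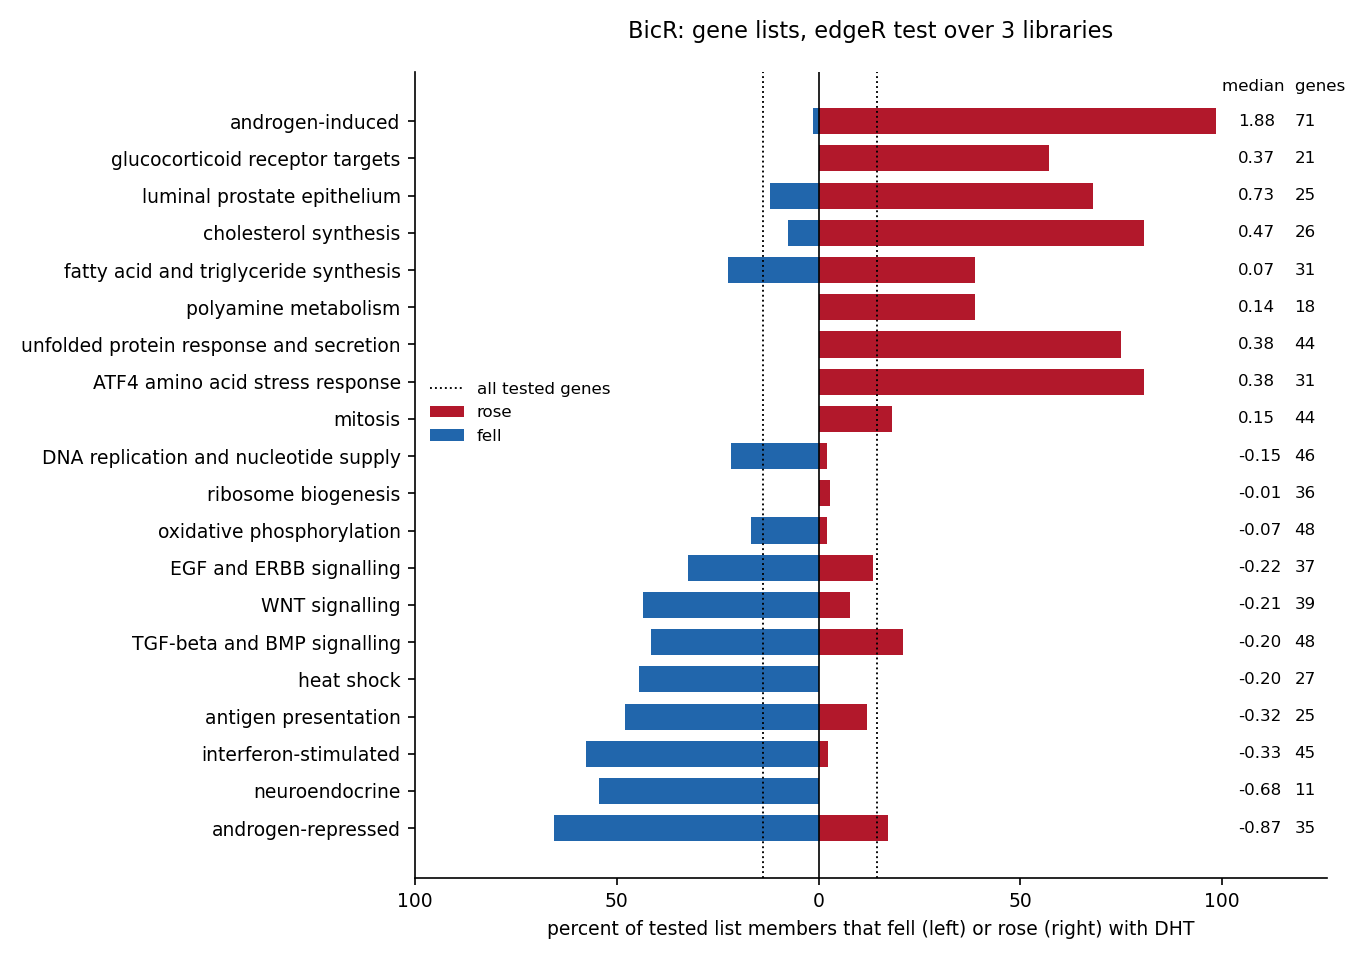
Percent of the tested members of 20 gene lists that rose (red, right) or fell (blue, left) with DHT in the 3-library edgeR test, with the median log2(CPM + 1) difference and the number of tested members at the right; dotted lines mark the 14.4% and 13.9% of all tested genes. Androgen-induced, sterol, secretory and ATF4 genes extend to the right, and interferon-stimulated, neuroendocrine and androgen-repressed genes to the left.

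Markers of other cell states shifted in places. Of 11 tested neuroendocrine markers 6 fell and 0 rose, led by DDC and CBLN2; ENO2, neuron-specific enolase, had 59.9 CPM with DHT, against 102 with bicalutamide and 97.4 with ethanol. Of the defining neuroendocrine markers, CHGA and INSM1 had at most 3 counts in any of the 3 libraries, while SYP, synaptophysin, did not pass, with 97 counts with DHT, against 112 with bicalutamide and 103 with ethanol. Of 17 mesenchymal markers 7 fell, 1 rose and 9 did not pass; those that fell included VIM and FN1. VIM, vimentin, had 31.3 CPM with DHT, against 49.2 with bicalutamide and 53.2 with ethanol. FN1, fibronectin, had 1264 CPM with DHT, against 1885 with bicalutamide and 2099 with ethanol. SNAI2, a repressor of epithelial genes, rose and passed in both fits, with 590 counts with DHT, against 55 with bicalutamide and 42 with ethanol. Of 9 basal markers 5 fell and 1 rose, with ITGB4, an integrin of hemidesmosomes, at 21.8 CPM with DHT, against 32.5 with bicalutamide and 32.1 with ethanol. KRT14, a basal keratin below the mean of 20 counts, had 21 counts with DHT, against 2 with bicalutamide and 2 with ethanol.

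Ion channels held some of the highest and several lower genes. Of 53 tested 5 rose and 13 fell. TRPM8, a cold-sensing cation channel, had 1068 counts with DHT, against 96 with bicalutamide and 131 with ethanol. KCNN2, a calcium-activated potassium channel, had 6739 counts with DHT, against 1049 with bicalutamide and 1110 with ethanol. KCNMA1, another such channel, had 17284 counts with DHT, against 6409 with bicalutamide and 7562 with ethanol. These 3 and CHRNA2 passed in both fits. ATP2B1, a calcium pump of the plasma membrane, had 3111 counts with DHT, against 8443 with bicalutamide and 9083 with ethanol. KCNJ3, an inward-rectifier potassium channel, had 89 counts with DHT, against 280 with bicalutamide and 234 with ethanol. Guidance and matrix genes fell more often than they rose, 16 against 9 of 47 tested in each list. SEMA3C, a secreted semaphorin, had 91.8 CPM with DHT, against 168 with bicalutamide and 180.3 with ethanol. MMP16, a membrane-bound metalloprotease, had 4886 counts with DHT, against 15764 with bicalutamide and 16968 with ethanol. ADAMTS1, a protease of proteoglycans, rose, with 1208 CPM with DHT, against 364 with bicalutamide and 441 with ethanol. ITGAV, the integrin alpha-V chain, also rose, with 203 CPM with DHT, against 92.1 with bicalutamide and 94.9 with ethanol. ADAMTS1 was lower with bicalutamide than with ethanol, by 0.27 on the log2 scale.

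Although the series' design text speaks of androgen-regulated microRNAs, the table lists gene symbols, and 5 genes with a microRNA symbol reached the mean of 20 counts. None of them passed by edgeR over the 3 libraries. The microRNA host gene MIR17HG had 55 counts with DHT, against 36 with bicalutamide and 52 with ethanol. Among 54 tested small nucleolar and Cajal body RNAs 3 rose and 6 fell. PART1, a prostate long noncoding RNA, rose, with 685 counts with DHT, against 293 with bicalutamide and 261 with ethanol. MALAT1, a nuclear one, rose too, with 730.3 CPM with DHT, against 561 with bicalutamide and 488 with ethanol.

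Genes called in BicR had smaller median differences in LNCaP. The LNCaP differences were computed the same way, DHT against bicalutamide and ethanol, and 43 genes (0.31%) were called higher and 10 (0.072%) lower. There the androgen-free libraries were farther apart, with 361 genes (2.6%) 2-fold different between bicalutamide and ethanol. Of the 182 genes called higher in BicR, 30 were called higher in LNCaP and 0 lower, which is 16.5% of the BicR set and 69.8% of the LNCaP set. Of the 106 called lower, 1, the mannosidase gene MAN1A1, was called lower in LNCaP and 0 higher. The median LNCaP difference was 0.41 over the genes called higher in BicR, beside 1.68 in BicR, and -0.26 over those called lower, beside -1.31. Since the genes were chosen for their size in BicR, the smaller LNCaP values are in part fixed by the choice.

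KLK3 stood at close values in the lines, 1.998 in BicR and 2.16 in LNCaP. ERRFI1 stood at 2.28 in BicR and 0.04 in LNCaP, ACSL3 at 2.47 and 0.30, and NCAPD3 at 3.70 and 0.63. On the lower side, CBLN2 stood at -2.70 in BicR and -0.21 in LNCaP, and PITX1, a homeobox factor, at -1.34 and 0.94. AGR2, a disulfide isomerase family gene, stood at 1.76 in BicR and -1.09 in LNCaP. The difference between the lines was tested as the interaction of line and androgen over 6 libraries. By edgeR 0 genes passed, with 1428 at an unadjusted p under 0.05, and the lowest adjusted p was 0.258, shared by ERRFI1, ACSL3, CBLN2 and PITX1 among others. DESeq2 called 101 genes with the BicR difference above the LNCaP one and 50 below it, 1.09% of those tested in all. The edgeR count depended strongly on the LNCaP androgen-free libraries. With either of them left out, the error came from the BicR androgen-free pair alone, whose libraries lay closer together. The coefficient of variation that edgeR estimated between libraries was then 0.055, beside 0.169 in the fit of all 6. Counts from those fits are therefore no measure of how many genes differ between the lines.

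**Figure D5:**
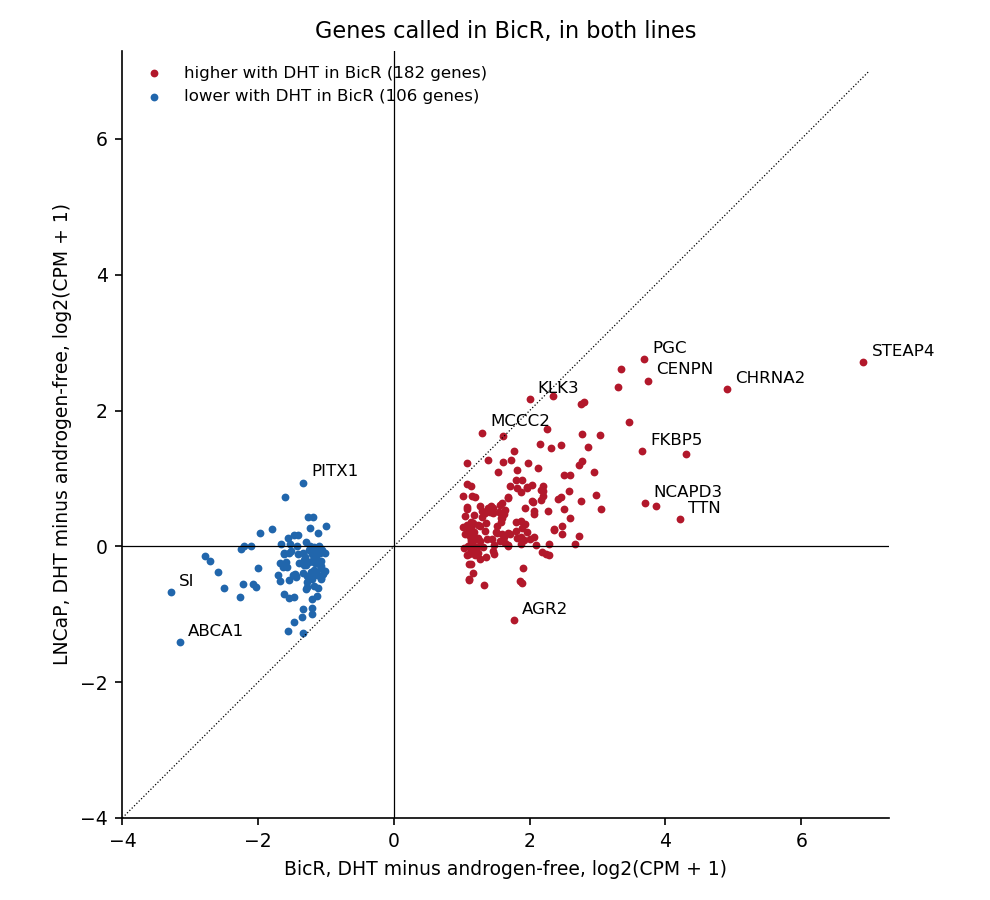
DHT difference on the log2(CPM + 1) scale in BicR (x axis) and LNCaP (y axis) for the genes called in BicR, with a dotted line where the lines are equal. KLK3 and MCCC2 lie near that line, STEAP4, CHRNA2 and TTN lie far below it, and AGR2 and PITX1 have opposite signs in the lines.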

How the data were processed

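Total RNA of 6 libraries was sequenced, and the 3 BicR libraries are described here. Per the file headers, the deposited table gave raw counts per gene symbol and RPKM values made by the authors; hg19 was the genome build per the submitters' processing notes. Not given in the sources used here are the aligner, the counting tool, the annotation and the use of strand, so reads of overlapping or near-identical genes cannot be assigned with certainty. Counts were scaled by TMM over 6 libraries (edgeR 4.0.16, R 4.3.3). Genes with a mean of 20 counts or more were kept. Differences used a pseudocount of 1 CPM. edgeR's quasi-likelihood test, two-sided with Benjamini-Hochberg adjustment at 0.05, compared DHT with the androgen-free pair; DESeq2 1.42.0 was an alternative. The androgen-free libraries differ in treatment and are not replicates, so a p-value reflects only how far these libraries lie apart, which may be technical. Ratios compare DHT with the pooled androgen-free counts and carry exact 95% intervals; intervals and floors (3 counts per library, over the pool for a ratio) cover counting error only. The members and gene lists were chosen with earlier results of these data known. Genes were named by rule: the 15 highest and 15 lowest called differences, those with the largest gain or loss in CPM, up to 4 leading members of each list, the genes farthest apart between the androgen-free libraries, a fixed set that included KLK3, MYC and reference genes, and the leading genes of the interaction; others were chosen after their values were seen. The 27 rows with date-like names left by a spreadsheet are not named, and some genes of the rule are not reported here. The RPKM values, made by the authors, served only as an alternative scale. Symbols were matched to RefSeq for 13423 tested genes.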

Additional observations from a re-analysis of the deposited data

How the results depend on the processing

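The counts of called genes moved with the scale for low values and with the source of the spread; the cause was not tested. The count at least 2-fold higher, 182, was 110 on the authors' RPKM scale. The count at least 2-fold lower, 106, was 312 with a pseudocount of 0.1 CPM, 50 with 5 CPM and 55 on RPKM, and 0.1 CPM and RPKM also put 30 and 6 genes 2-fold apart between bicalutamide and ethanol. Against a single androgen-free library the counts were 198 and 202 higher, and 128 and 144 lower. With edgeR, 2001 higher and 1936 lower became 112 and 26 with all 6 libraries and their interaction, and DESeq2 over the 3 libraries called 1027 and 926. Leaving out 1 androgen-free library and fitting the other 5 gave 81 to 2004 higher and 27 to 1949 lower: 85 and 28 without BicR ethanol, 81 and 27 without BicR bicalutamide, 1994 and 1946 without LNCaP ethanol, and 2004 and 1949 without LNCaP bicalutamide; the run without LNCaP bicalutamide was added after seeing the data. The interaction of line and androgen, 0 genes, ranged from 0 to 6288 when 1 library was left out and was 151 by DESeq2; a library left alone in its group was assumed to vary like the others. None of 286 named genes changed sign while called under the alternatives run, and total-count scaling, which moved the median of all genes by under 0.1, took 7 of them below 2-fold. No paired analysis was possible because the labels number no replicates.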
